A study of Mus musculus with 9 samples.

Results

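Lung cells sorted into 3 populations were sequenced as libraries that carry sequencing-core numbers from 2 separate ranges, and the 3 libraries of the lower range were compared here with the 6 libraries of the higher range within each population. The first series held replicate 1 of each population, and the second series held the other 2 libraries of each population. The comparison used all 9 libraries and 15550 of the 19348 genes in the table. All cells came from lungs of C57BL/6J mice with the genotype Col1_GFP;Foxf1_tdTomato, in which a green reporter marks type 1 collagen expression and a red reporter marks expression of the transcription factor gene Foxf1. DBL cells were positive for both reporters, ColGFP cells for the collagen reporter alone and TDonly cells for the Foxf1 reporter alone. The labels do not give the promoters that drive the reporters or the sort gates, and their RNA protocol speaks of frozen whole lung, which was not reconciled with the sorted populations. No treatment, age, sex, sequencing date or pooling of animals is given in the sources used here, and nothing says that the replicates came from separate animals. The labels name neither range a batch, so "first series" and "second series" here mean only the 2 ranges of core numbers. Each population had 1 first-series library, so a difference within a population is between 1 library and a pair, its error was estimated from the second-series pairs and shared across populations, and the lone library was assumed to vary like them. The p-values within populations and of the interaction therefore measure the spread between second-series libraries, which may be technical. Over populations the fit was additive. Its error, and so its p-values, also take in how unlike the series differences of the 3 populations were.

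Interferons act through STAT transcription factors to raise a broad set of genes, among them guanylate-binding proteins, T cell-attracting chemokines and the machinery that loads peptides on MHC molecules. In the lung, endothelial cells and fibroblasts answer such signals as well as leukocytes do. Glucocorticoid hormone and the circadian clock set a daily rhythm of other genes, whereas enzymatic dissociation of tissue is known to raise immediate early genes and heat shock genes, which is why these groups are commonly inspected when sorted-cell libraries are compared.

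The libraries held 17820969 to 26147475 counts. Pairwise chi-square statistics per degree of freedom were 53.8 to 98.8 between a first-series library and a second-series library of its population, and 5.32 to 14.6 within second-series pairs, so no library was a repeat of another. The first principal component, with 64.1% of the variance, separated the populations. Foxf1 (listed as Foxf1a) was at 279, 231 and 229 CPM in TDonly, 113, 87.3 and 103 CPM in DBL and 61.9, 62.5 and 54.5 CPM in ColGFP, with the first-series library given first. Col1a1, which encodes a chain of type 1 collagen, was at 9536, 12237 and 13219 CPM in DBL, 4937, 9589.7 and 9178 CPM in ColGFP and 373, 1493 and 1565 CPM in TDonly. In both series each gene was higher in the populations labelled positive for its reporter than in the population without it. The labels give no order among the positive populations. Reads of Foxf1 and of the divergent non-coding gene Fendrr cannot be told apart where they overlap, since the strand setting is not given. Levels are CPM, a library's counts scaled to a common total with TMM factors, and a log2 fold change is the first series against the second, positive where the first series was higher.

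With population as a blocking factor, 1190 genes passed at an adjusted p below 0.05, which is 7.65% of the genes tested. Of these, 548 were higher in the first series (3.52%) and 642 were lower (4.13%), with 118 and 168 changed at least 2-fold. The 10 genes with the largest rise, among those at 10 CPM or more and on the same side in every population, were Gbp10, Ido1, Saa3, Cxcl9, Gbp5, Tgtp1, Serpina3f, Zbp1, Gbp8 and Lcn2. Of these, Gbp5, Gbp8, Gbp10 and Tgtp1 encode interferon-induced GTPases, Cxcl9 a chemokine for activated T cells, Ido1 a tryptophan-degrading enzyme, Zbp1 a nucleic acid sensor, and Saa3 and Lcn2 acute-phase proteins. The 10 with the largest fall were Ngp, Slc4a1, S100a8, S100a9, Mmp9, Alas2, Beta-s, Trem1, Scara5 and Myo1f, which include neutrophil granule and alarmin genes and the red cell genes Slc4a1, Alas2 and Beta-s (a beta-globin gene). A test against a 2-fold change kept 15 genes. Without the ColGFP first-series library the count rose to 2563, and it was 693 without that of DBL and 824 without that of TDonly. Leaving out 1 second-series library gave 447 (DBL replicate 4), 508 and 567 (TDonly replicates 2 and 3), 627 (DBL replicate 3), and 748 and 740 (ColGFP replicates 2 and 3). Higher and lower, these were 203 and 244, 232 and 276, 255 and 312, 279 and 348, 376 and 372, and 374 and 366. Without the first-series library they were 1259 and 1304 (ColGFP), 221 and 472 (DBL) and 345 and 479 (TDonly). Counts of list members without a library, given below, are to be read beside these totals. The first-series library lay above both others in every population for 11.0% of genes and below both for 11.4%. The genes named in this paragraph were chosen for such a placing, so it is no separate result for them. List members named below were picked by adjusted p in these same data, so their placing is no separate result either. Within a single population, a lone library often lies outside a pair by order alone, so that placing is only a description.

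The interferon-stimulated genes were higher in the first series in DBL and TDonly, and as a group were not in ColGFP. Of 44 tested, 42 rose in DBL, where 6.57% of all genes did, and 41 rose in TDonly, where 7.45% did, with none lower in either. In ColGFP 6 rose and 4 fell, against 8.07% and 8.47% of all genes. The median log2 fold change was 1.80 in DBL, 1.15 in TDonly and -0.05 in ColGFP, beside -0.01, 0.00 and 0.00 over all genes. The difference between populations itself passed for 41 of the 44, against 18.0% of all genes. Isg20 and Irf9 were the 2 genes that did not pass in DBL. These libraries are of bulk cells, so more cells of a type and more RNA per cell cannot be told apart.

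Gbp2 and Gbp5, guanylate-binding proteins induced by interferon gamma, showed the pattern most plainly. In DBL, Gbp5 was at 249 CPM in the first-series library against 21.1 and 21.7 CPM in the second-series libraries (log2 fold change 3.54 ± 0.10, edgeR adjusted p = 2.39e-13). In TDonly, Gbp5 was at 337 CPM in the first-series library against 26.2 and 24.96 CPM in the second-series libraries (3.72 ± 0.10, adjusted p = 2.73e-13). In ColGFP, Gbp5 was at 18.5 CPM in the first-series library against 14.8 and 16.8 CPM in the second-series libraries (0.22 ± 0.12, adjusted p = 0.256). The first-series library stood far above its pair in DBL and TDonly and only just above it in ColGFP. The Gbp5 difference in ColGFP was smaller than that in DBL by 3.32 ± 0.16 log2 units (adjusted p = 9.02e-10), and the differences in DBL and TDonly lay -0.18 ± 0.15 apart (adjusted p = 0.652). In DBL, Gbp2 was at 937 CPM in the first-series library against 149 and 156 CPM in the second-series libraries, and in TDonly at 1100.4 CPM in the first-series library against 151 and 154 CPM in the second-series libraries. Gbp2 in ColGFP was at 127 CPM in the first-series library against 117 and 108 CPM in the second-series libraries, where the groups did not overlap but the change did not pass (0.18 ± 0.09, adjusted p = 0.185).

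The chemokines Cxcl9 and Cxcl10, which share a receptor on activated T cells, parted in ColGFP. In DBL, Cxcl10 was at 136 CPM in the first-series library against 29.9 and 26.5 CPM in the second-series libraries. In TDonly, Cxcl10 was at 68.99 CPM in the first-series library against 7.73 and 7.69 CPM in the second-series libraries. The ColGFP levels of Cxcl10 were 27.05 CPM in the first-series library against 25.8 and 31.1 CPM in the second-series libraries, inside the range of the pair. Cxcl10 rose by 2.27 ± 0.12 in DBL and by 3.16 ± 0.13 in TDonly, and the difference between populations passed (interaction adjusted p = 2.39e-08). In DBL, Cxcl9 was at 77.9 CPM in the first-series library against 5.05 and 4.84 CPM in the second-series libraries. In TDonly, Cxcl9 was at 60.1 CPM in the first-series library against 3.72 and 2.46 CPM in the second-series libraries. In ColGFP, Cxcl9 was at 7.73 CPM in the first-series library against 3.51 and 3.42 CPM in the second-series libraries. The rule that named Cxcl9 over populations required the first-series library to lie outside its pair on the same side in every population. Cxcl9 was thus above its pair in every population, by 3.98 ± 0.16 in DBL, 4.27 ± 0.17 in TDonly and 1.16 ± 0.21 in ColGFP (adjusted p = 0.000941, interaction adjusted p = 1.15e-06).

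Gbp4 and Tgtp1, 2 further interferon-induced GTPases, were among the 6 that rose in ColGFP too. In DBL, Gbp4 was at 268 CPM in the first-series library against 61.04 and 54.1 CPM in the second-series libraries. In TDonly, Gbp4 was at 575 CPM in the first-series library against 143 and 133 CPM in the second-series libraries. In ColGFP, Gbp4 was at 31.96 CPM in the first-series library against 9.49 and 10.3 CPM in the second-series libraries. Gbp4 was above its pair in every population, as were 11.0% of all genes. The blocked log2 fold change was 2.01 ± 0.10 (adjusted p = 7.29e-05), and the difference between populations did not pass (adjusted p = 0.0634). Igtp, another such GTPase, rose by 2.33 ± 0.09 in DBL, 1.92 ± 0.09 in TDonly and 0.68 ± 0.10 in ColGFP. Irf1, a transcription factor of the same response, fell in ColGFP from 460.1 and 489 CPM to 288 CPM (-0.72 ± 0.08, adjusted p = 9.42e-06). Reads of the closely related Gbp and Tgtp copies may have been divided between them, so single members are less certain than the group. Over populations Gbp5 had an adjusted p of 0.0143, and of 0.0516 to 0.0794 without any 1 DBL or TDonly library, and Zbp1 one of 0.0113, and of 0.0566 without DBL replicate 1. The blocked count of interferon-stimulated genes was 29 of 44, against 3.52% of all genes, with a median of 1.10. It fell to 7, 11 and 9 without DBL replicates 1, 3 and 4. Without TDonly replicates 1, 2 and 3 it was 8, 10 and 10. In the same fits the number of all genes called higher also fell, from 548 to between 203 and 345.

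**Figure D1:**
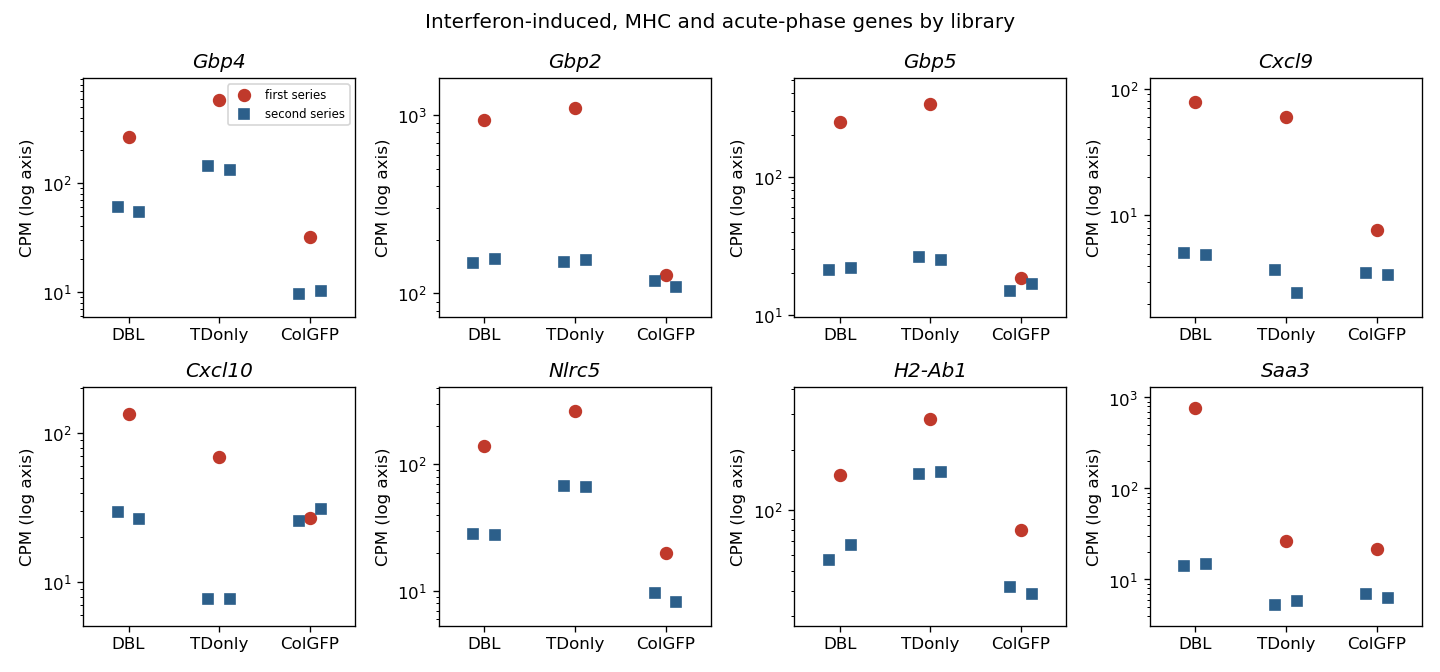
CPM on a log axis for 8 genes in each library, with red circles for the first-series library and blue squares for the 2 second-series libraries of DBL, TDonly and ColGFP. Gbp4, Cxcl9, Nlrc5, H2-Ab1 and Saa3 were higher in the first-series library in all 3 populations, whereas the ColGFP circle of Cxcl10 lies between its squares.

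**Figure D2:**
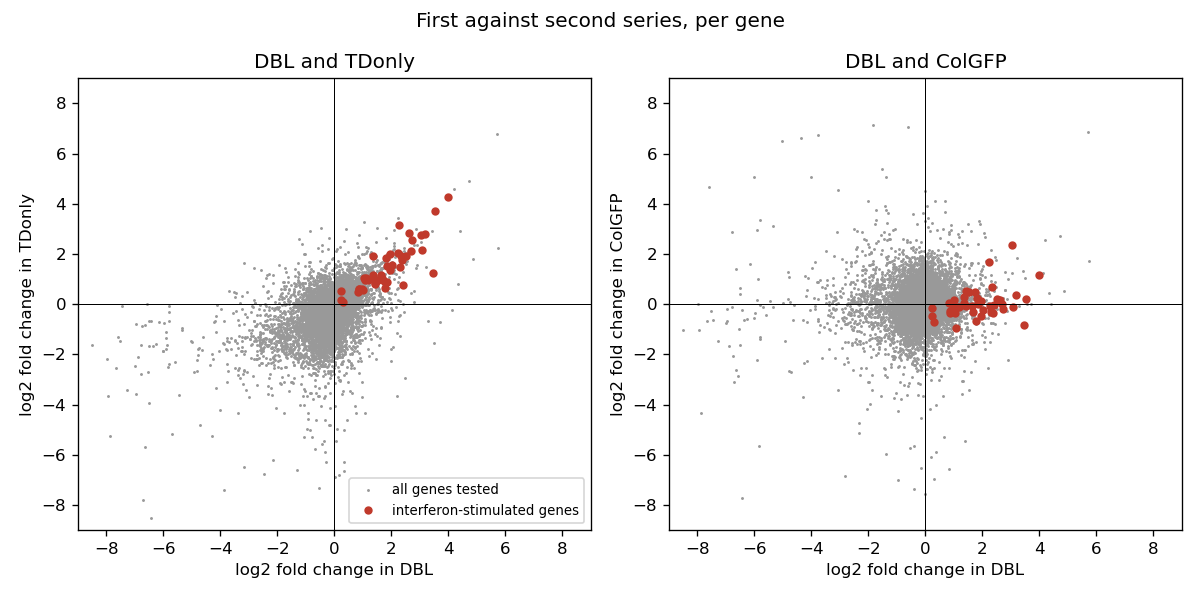
Log2 fold change of the first against the second series per gene, DBL on the x axis against TDonly (left) and ColGFP (right), with grey points for the 15550 genes and red points for the 44 interferon-stimulated genes. The red points lie along the diagonal on the left and along the horizontal axis on the right.

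The scatter of changes per gene shows the same split beyond interferon genes. Across the 15550 genes the changes in DBL and TDonly had a Pearson correlation of 0.484, those in DBL and ColGFP 0.073, and those in ColGFP and TDonly 0.107, where genes are not independent replicates and the 9 libraries share 1 normalisation. Of the 1278 genes called in both DBL and TDonly, 95.0% had the same direction, which is 57.1% of the DBL calls and 42.6% of the TDonly calls. For DBL and ColGFP the share was 79.3% of 772, and for ColGFP and TDonly 71.9% of 956. In all 3 populations 157 genes were called higher and 251 lower, and 375 were called in opposite directions in at least 2 populations.

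Promoter letters were inspected because the interferon-stimulated response element, the sequence bound by the STAT and IRF complex of type I interferon signalling, has a known form. Windows from 250 bases before to 50 bases after a transcription start, taken from RefSeq (GRCm38.p6), were searched on both strands for this element as GAAA, 2 bases of any kind and GAAA. A match was present for 18 of the 31 interferon-stimulated genes that rose in DBL and had a window, or 58.1%, beside 408 of 10881 tested genes, or 3.75%. Over the whole list, whatever the change, it was 18 of 33, or 54.5%. The share is thus a trait of the list, nearly all of which rose, and is no separate support for the rise. Among all genes higher over populations it was 41 of 390, or 10.5%, and among those lower 15 of 464, or 3.23%. The 250 bases before the start of 4 members that rose in DBL and TDonly are shown because they carry that element, whose match is in capitals and may be on either strand.
Gbp5, chr3:142496684-142496933, plus strand: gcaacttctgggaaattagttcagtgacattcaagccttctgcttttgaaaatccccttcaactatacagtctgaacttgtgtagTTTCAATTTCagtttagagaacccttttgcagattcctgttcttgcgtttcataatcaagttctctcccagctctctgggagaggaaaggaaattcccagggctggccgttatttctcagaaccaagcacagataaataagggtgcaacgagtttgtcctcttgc
Gbp2, chr3:142620413-142620662, plus strand: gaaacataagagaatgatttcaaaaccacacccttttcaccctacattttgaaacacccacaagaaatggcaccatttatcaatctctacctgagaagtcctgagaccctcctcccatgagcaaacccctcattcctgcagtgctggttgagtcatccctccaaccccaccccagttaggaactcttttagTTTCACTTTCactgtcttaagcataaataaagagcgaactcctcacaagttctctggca
Cxcl10, chr5:92348890-92349139, minus strand: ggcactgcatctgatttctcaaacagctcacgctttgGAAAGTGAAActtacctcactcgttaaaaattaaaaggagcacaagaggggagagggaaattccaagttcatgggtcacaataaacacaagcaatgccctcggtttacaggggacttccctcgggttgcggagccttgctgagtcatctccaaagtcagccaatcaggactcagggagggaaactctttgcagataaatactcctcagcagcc
Igtp, chr11:58199306-58199555, plus strand: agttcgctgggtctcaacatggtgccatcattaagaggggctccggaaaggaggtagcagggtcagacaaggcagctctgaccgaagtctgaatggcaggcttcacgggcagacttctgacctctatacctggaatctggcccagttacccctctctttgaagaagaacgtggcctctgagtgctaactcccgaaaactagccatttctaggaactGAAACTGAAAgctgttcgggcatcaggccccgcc
The match starts 34 bases before the start site in Igtp, 59 in Gbp2, 165 in Gbp5 and 213 in Cxcl10. Of these genes Igtp passed in ColGFP, and Cxcl10, Gbp2 and Gbp5 did not. Matches to 6 other motifs were fewer: the heat shock element, searched as GAA, TTC and GAA with 2 bases of any kind between neighbours, was in 4 of 12 heat shock genes with a window against 0.634% of all genes, and the cyclic AMP element TGACGTCA in 3 of 21 immediate early genes against 3.30%. A match is a description of letters and does not show that a factor was bound.

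Genes of antigen presentation rose in every population. Of 20 tested, 18 were higher over populations, with 20 in DBL, 20 in TDonly and 12 in ColGFP, and none was lower. The share of all genes that was higher was 3.52% over populations, 6.57% in DBL, 7.45% in TDonly and 8.07% in ColGFP. The median log2 fold change was 1.02 in DBL, 0.83 in TDonly and 0.51 in ColGFP. In DBL, H2-Ab1, a class II chain, was at 149 CPM in the first-series library against 56.8 and 67.3 CPM in the second-series libraries. In TDonly, H2-Ab1 was at 283 CPM in the first-series library against 151 and 155 CPM in the second-series libraries. In ColGFP, H2-Ab1 was at 79.5 CPM in the first-series library against 41.6 and 38.5 CPM in the second-series libraries. H2-Ab1 was above its pair in every population, as were 11.0% of all genes, and rose by 1.05 ± 0.09 over populations (adjusted p = 0.000555). Cd74, the invariant chain, rose by 0.92 ± 0.09 (adjusted p = 0.00106), the class I gene H2-Q6 by 1.15 ± 0.11 and Nlrc5, the transactivator of class I genes, by 1.87 ± 0.17 (adjusted p = 0.000865). Neighbouring H2 copies may share reads. Class II genes are also markers of myeloid and B cells. Of 19 macrophage and monocyte genes 12 were lower in DBL, 13 were lower in TDonly and 3 were higher in ColGFP. The matching shares of all genes were 7.11%, 10.9% and 8.07%. The part of these macrophage and monocyte genes in the result was not tested.

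Of 16 glucocorticoid-responsive genes 11 rose and 1 fell in ColGFP, where 8.07% and 8.47% of all genes did, with 7 higher and 3 lower in DBL and 4 higher and 2 lower in TDonly. The median was 0.94 in ColGFP, 0.07 in DBL and -0.05 in TDonly. Zbtb16 and Fkbp5, classical targets of the glucocorticoid receptor, rose in every population. In DBL, Zbtb16 was at 171 CPM in the first-series library against 61.3 and 63.5 CPM in the second-series libraries. In TDonly, Zbtb16 was at 182 CPM in the first-series library against 47.4 and 50.01 CPM in the second-series libraries. In ColGFP, Zbtb16 was at 281 CPM in the first-series library against 51.3 and 57.4 CPM in the second-series libraries. No group overlapped, a placing above the pair that 11.0% of all genes shared. The Zbtb16 rise was 1.92 ± 0.13 over populations (adjusted p = 0.000245). It was 2.37 ± 0.10 in ColGFP beside 1.45 ± 0.10 in DBL (adjusted p of that difference = 0.000269, interaction adjusted p = 0.00048). Fkbp5 rose by 1.23 ± 0.09 (adjusted p = 0.000249), from 18.6 to 37.1 CPM in the 6 second-series libraries to 46.5 to 75.2 CPM in the first. Over populations 5 of the 16 rose and 1 fell, where 3.52% of all genes rose and 4.13% fell. The shares of all genes that rose and fell were 6.57% and 7.11% in DBL and 7.45% and 10.9% in TDonly. Those that rose in ColGFP included Tsc22d3 at 261 CPM in the first-series library against 94.8 and 88.7 CPM in the second-series libraries (1.51 ± 0.09, interaction adjusted p = 8.34e-07) and Angptl4 (1.88 ± 0.12, interaction adjusted p = 3.37e-07). Tsc22d3, a leucine zipper protein induced by glucocorticoid, did not pass in DBL or TDonly (0.09 ± 0.10 and 0.10 ± 0.10), whereas Angptl4, a lipoprotein lipase inhibitor, also rose in DBL (2.43 ± 0.13).

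Of 19 circadian clock genes 7 rose, 3 fell and 9 did not pass over populations. The 4 with the smallest p were the repressor genes Per1 and Per2, which rose in all 3 populations, and the activator genes Arntl and Npas2, which fell in all 3. In DBL, Per2 was at 49.1 CPM in the first-series library against 27.4 and 28.2 CPM in the second-series libraries. In TDonly, Per2 was at 50.99 CPM in the first-series library against 21.7 and 26.2 CPM in the second-series libraries. In ColGFP, Per2 was at 74.1 CPM in the first-series library against 23.8 and 24.8 CPM in the second-series libraries. Per2 rose by 1.18 ± 0.13 over populations (adjusted p = 0.00219) and Per1 by 0.92 ± 0.09 (adjusted p = 0.00123). The DBL rise minus the ColGFP rise was -0.79 ± 0.18 for Per2 (adjusted p = 0.00725) and -0.39 ± 0.12 for Per1 (adjusted p = 0.0463), with interaction adjusted p = 0.0126 and 0.0335. In DBL, Arntl was at 29.5 CPM in the first-series library against 47.3 and 50.5 CPM in the second-series libraries. In TDonly, Arntl was at 23.8 CPM in the first-series library against 33.03 and 31.6 CPM in the second-series libraries. In ColGFP, Arntl was at 36.8 CPM in the first-series library against 72.8 and 79.3 CPM in the second-series libraries. Arntl fell by 0.74 ± 0.11 in log2 units (adjusted p = 0.0066) and Npas2 by 1.02 ± 0.14 (adjusted p = 0.00562). Over populations 3.52% of all genes rose and 4.13% fell. By population 11 clock genes rose and 4 fell in ColGFP, 8 rose and 6 fell in TDonly, and 3 rose and 2 fell in DBL. The shares of all genes that rose and fell were 8.07% and 8.47% in ColGFP, 7.45% and 10.9% in TDonly, and 6.57% and 7.11% in DBL. The count of 7 higher fell to 4 without ColGFP replicate 2, 4 without TDonly replicate 2 and 4 without TDonly replicate 3. The harvest time of the mice is not given in the sources used here.

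**Figure D3:**
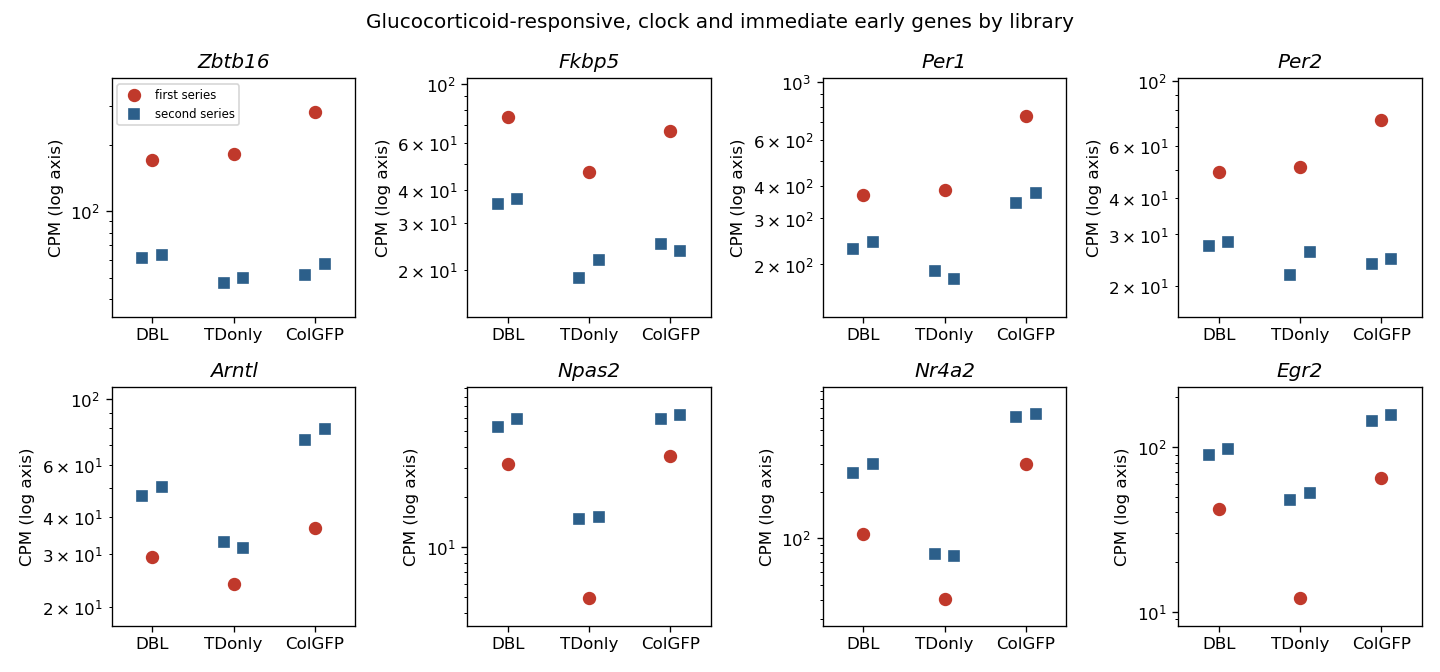
CPM on a log axis for 8 genes in each library, red circles for the first-series library and blue squares for the second-series pair. In every population the circle lies above both squares for Zbtb16, Fkbp5, Per1 and Per2, and below both for Arntl, Npas2, Nr4a2 and Egr2.

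Of 26 immediate early genes, which cells raise within minutes of a stimulus and which dissociation induces, 11 fell and 1 rose over populations, where 4.13% and 3.52% of all genes did. The median was -0.38 against 0.01 for all genes. By population 16 fell and 1 rose in DBL, 18 fell and 1 rose in ColGFP, and 8 fell and 3 rose in TDonly, where 7.11%, 8.47% and 10.9% of all genes fell. The nuclear receptor genes Nr4a1, Nr4a2 and Nr4a3 and the zinc finger gene Egr2 led. In DBL, Nr4a2 was at 107 CPM in the first-series library against 265 and 299.7 CPM in the second-series libraries. In TDonly, Nr4a2 was at 40.5 CPM in the first-series library against 78.9 and 77.1 CPM in the second-series libraries. In ColGFP, Nr4a2 was at 303 CPM in the first-series library against 607 and 633 CPM in the second-series libraries. Nr4a2 was below its pair in every population, as were 11.4% of all genes, and its blocked log2 fold change was -1.12 ± 0.10 (adjusted p = 0.000822). Egr2 changed by -1.43 ± 0.16 (adjusted p = 0.00219) and Nr4a3 by -1.22 ± 0.13, and both differed between populations (interaction adjusted p = 0.00138 and 0.00919). Egr2 changed by -1.14 ± 0.11 in DBL, -2.04 ± 0.13 in TDonly and -1.21 ± 0.11 in ColGFP, and Nr4a3 by -1.07 ± 0.11, -1.73 ± 0.13 and -0.98 ± 0.11. Nr4a1 changed by -0.72 ± 0.09 and did not pass the test of a difference between populations (adjusted p = 0.463). The count of 11 was 5 without DBL replicate 1, 6 without DBL replicate 3, 4 without DBL replicate 4, 6 without ColGFP replicate 2, 5 without ColGFP replicate 3, 6 without TDonly replicate 2 and 6 without TDonly replicate 3.

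Of 16 heat shock and chaperone genes 5 fell and none rose over populations, where 4.13% of all genes fell, with a median of -0.23. By population 4 fell and 1 rose in DBL, 8 fell in ColGFP and 5 fell in TDonly, where 7.11%, 8.47% and 10.9% of all genes fell. Hspa1b, an inducible chaperone, was the largest, at -0.81 ± 0.12 (adjusted p = 0.00601), and Hsp90aa1 fell by 0.41 ± 0.07 in log2 units (adjusted p = 0.012). Hspa1a, a nearly identical copy that may share reads with Hspa1b, had -0.52 ± 0.10 (adjusted p = 0.0175), which did not pass without DBL replicate 1 (0.0794) or TDonly replicate 2 (0.0508). Without TDonly replicate 2 the count was 2, and without DBL replicate 1 or 4, either second-series ColGFP library or TDonly replicate 3 it was 3.

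Of 34 cell cycle genes 9 rose and 1 fell in DBL, 16 rose and 1 fell in TDonly, and 1 rose and 2 fell in ColGFP, where 6.57%, 7.45% and 8.07% of all genes rose. The difference between populations passed for 3 of the 34, against 18.0% of all genes. Top2a, a topoisomerase of dividing cells, was at 22.8, 9.28 and 7.02 CPM in DBL, 32.2, 12.3 and 13.2 CPM in TDonly and 7.06, 5.99 and 5.22 CPM in ColGFP, with the first-series library first. Mki67, a nuclear protein of cycling cells, was at 35.9, 18.5 and 16.4 CPM in DBL, 55.4, 26.9 and 32.3 CPM in TDonly and 20.2, 16.1 and 15.01 CPM in ColGFP. First-series libraries lay above both others in every population for both genes, as for 11.0% of all genes, but the ColGFP difference did not pass for either. The blocked Top2a change of 1.11 ± 0.19 (adjusted p = 0.0122) had an adjusted p of 0.061 without DBL replicate 1 and 0.0528 without TDonly replicate 1. Over populations Mki67 rose by 0.79 ± 0.13 (adjusted p = 0.00844) and Ccna2, a cyclin, by 1.24 ± 0.16 (adjusted p = 0.00463). Pcna, a replication clamp, moved the other way (-0.38 ± 0.06, adjusted p = 0.0115, and 0.0509 without DBL replicate 1). Over populations 9 of the 34 rose and 1 fell, where 3.52% and 4.13% of all genes did. The count of 9 became 2, 3 and 3 without DBL replicates 1, 3 and 4. Without ColGFP replicates 1 and 2 it was 22 and 5, and without TDonly replicates 1, 2 and 3 it was 2, 4 and 4. All genes called higher went from 548 to 221 without DBL replicate 1 and to 1259 without ColGFP replicate 1.

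**Figure D4:**
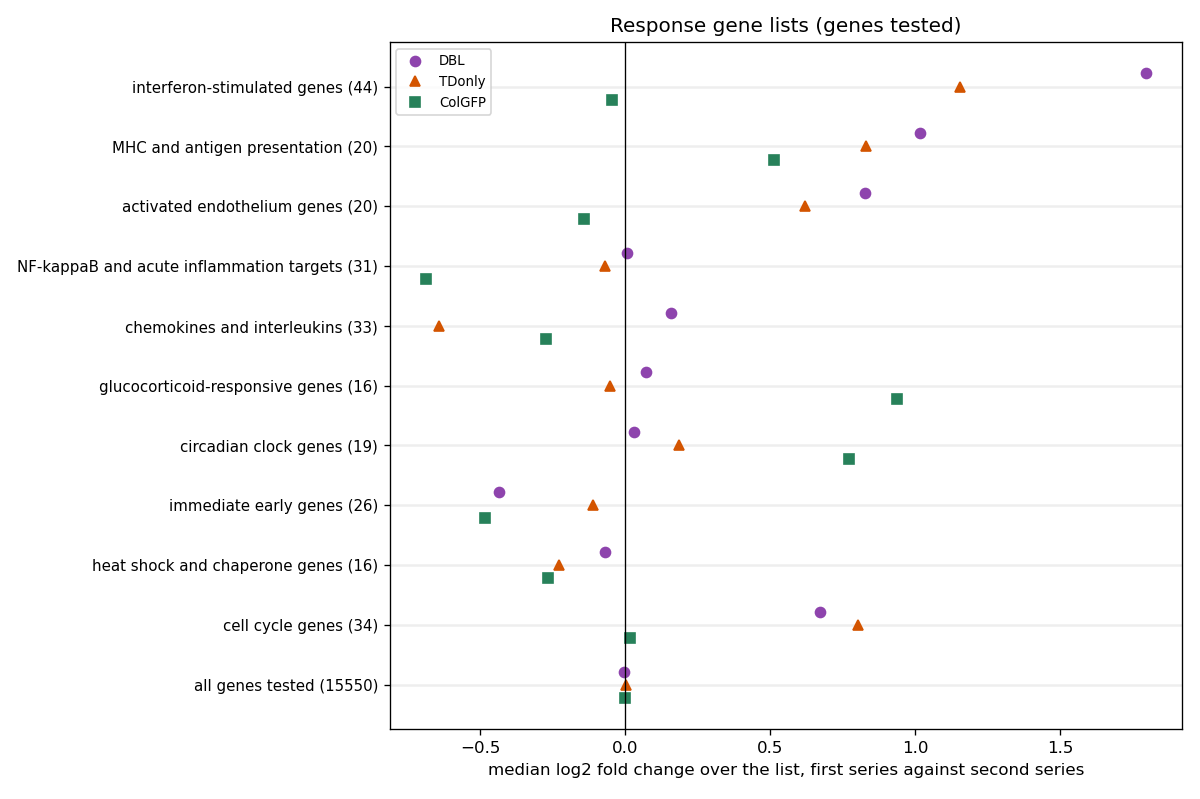
Median log2 fold change of the first against the second series over each list of response genes, with the number of genes tested in brackets, for DBL (circles), TDonly (triangles) and ColGFP (squares). The interferon-stimulated median is 1.80 in DBL and 1.15 in TDonly and -0.05 in ColGFP, whereas the glucocorticoid-responsive and clock medians are highest in ColGFP among the 3 populations.

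Neutrophil markers were lower in the first series in every population, with 11 of 13 lower in DBL, 12 in TDonly and 7 in ColGFP, where 7.11%, 10.9% and 8.47% of genes were lower. Their summed level was 30.9 CPM against 131.9 and 145.9 in DBL, 68.4 against 224.7 and 346.7 in TDonly and 103.9 against 182.3 and 205.9 in ColGFP. S100a9, an alarmin of neutrophils, was at 2.21, 28.2 and 30.7 CPM in DBL, 10.2, 50.7 and 78.3 CPM in TDonly and 21.1, 42.9 and 47.4 CPM in ColGFP. S100a8, its partner, changed by -2.58 ± 0.46 over populations (adjusted p = 0.0139), Mmp9 by -2.15 ± 0.38 and the granule gene Ngp by -4.39 ± 0.36 (adjusted p = 0.000555). First-series levels lay below both others in every population for these 4 genes, which the rule that named them required. Trem1, a receptor on myeloid cells, had -1.95 ± 0.49 (adjusted p = 0.0428) and did not pass without any 1 library other than ColGFP replicates 1 and 2. Myo1f, a leukocyte myosin, had -1.69 ± 0.32 (adjusted p = 0.0168), and 0.0578 without TDonly replicate 1.

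Red cell genes fell in the 3 populations. Of 6 erythroid genes tested, 5 fell over populations, with a median of -2.06, and 5 fell in DBL, 4 in ColGFP and 4 in TDonly. The share of all genes that fell was 4.13% over populations, 7.11% in DBL, 8.47% in ColGFP and 10.9% in TDonly. Beta-s was at 22.03, 115 and 119.8 CPM in DBL, 33.1, 155 and 135 CPM in TDonly and 48.1, 137 and 152 CPM in ColGFP. Alas2, the first enzyme of heme synthesis in red cell precursors, changed by -2.09 ± 0.12 (adjusted p = 0.000132) and Slc4a1, the anion exchanger of the red cell membrane, by -3.09 ± 0.30 (adjusted p = 0.00117). All 3 were lower than both other libraries in each population, which the rule that named them required. Without DBL replicate 1, DBL replicate 4 or TDonly replicate 2 the count was 3.

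Macrophage, monocyte and lymphocyte markers fell in DBL and TDonly but not in ColGFP. In DBL 12 of 19 macrophage and monocyte genes and 11 of 16 lymphocyte and natural killer genes fell, and in TDonly 13 and 8 did. Among all genes 7.11% fell in DBL and 10.9% in TDonly, while 8.47% fell and 8.07% rose in ColGFP. In ColGFP none of either list fell, and 3 macrophage genes rose (Lyz1, Lyz2 and Csf1r, named after their values were seen). Ptprc, the pan-leukocyte protein CD45, was at 5.22, 30.4 and 33.2 CPM in DBL, 22.8, 62.9 and 82.5 CPM in TDonly and 39.3, 30.7 and 39.5 CPM in ColGFP. The DBL change was -2.61 ± 0.21 (adjusted p = 1.35e-07), while the ColGFP libraries overlapped. Itgam, the integrin of myeloid cells, changed by -4.04 ± 0.35 in DBL, Coro1a and Cd53, general leukocyte genes, by -3.39 ± 0.27 and -2.91 ± 0.28, the alveolar macrophage integrin Itgax by -2.58 ± 0.33, the monocyte receptor gene Ccr2 by -2.47 ± 0.33, and the B cell genes Ms4a1 and Cd79b by -3.35 ± 0.47 and -1.98 ± 0.34. Interferon-stimulated genes rose in the 2 populations in which the macrophage and lymphocyte lists were lower, while neutrophil markers were lower in all 3, and their part in that result was not tested. Summed macrophage and monocyte levels were 1739 CPM against 2006 and 2014 in DBL, 2835 against 3744 and 4106 in TDonly, and 3408 against 1260 and 1671 in ColGFP. The median log2 fold change of the list was -1.54 in DBL, -1.22 in TDonly and 0.07 in ColGFP, so the ColGFP sum does not describe the list as a whole. Epithelial markers rose in the same ColGFP library, and their part in that sum was not tested.

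Of 23 pan-endothelial genes 9 rose and none fell over populations, with a median of 0.33, where 3.52% of all genes rose and 4.13% fell. The summed level of the 23 was 8480 CPM against 6772 and 7067 in DBL, 21770 against 19860 and 19950 in TDonly, and 1781 against 1252 and 1479 in ColGFP. Plvap, a diaphragm protein of fenestrated endothelium, was at 556, 265 and 284 CPM in DBL, 1265, 848 and 871 CPM in TDonly and 77.2, 61.01 and 51.5 CPM in ColGFP. Robo4, a guidance receptor of endothelium, rose by 0.76 ± 0.09 (adjusted p = 0.00255), Egfl7 by 0.68 ± 0.10 and the junction gene Esam by 0.55 ± 0.09. First-series libraries were above both others in every population for these genes, as for 11.0% of all genes. The genes were picked by adjusted p in this comparison, so the placing is no separate result. The count of 9 became 4 without DBL replicate 1, 5 without DBL replicate 3, 4 without DBL replicate 4, 5 without TDonly replicate 2 and 5 without TDonly replicate 3.

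Within DBL, 2127 genes differed between the series, or 13.7% of those tested, with 1022 higher and 1105 lower. Saa3, an acute-phase serum amyloid, rose furthest of the named genes, followed by Gbp10 (4.72 ± 0.24), Fam26f (4.32 ± 0.45) and Ido1 (4.20 ± 0.30), all 3 interferon-induced. Saa3 was at 773 CPM in the first-series library against 14.2 and 14.8 CPM in the second-series libraries (5.73 ± 0.10, adjusted p = 3.6e-16). Saa3 was also above its pair in TDonly, at 26.2, 5.21 and 5.76 CPM, and in ColGFP, at 21.7, 6.95 and 6.28 CPM, by 2.26 ± 0.12 and 1.72 ± 0.13. The DBL rise exceeded that in TDonly by 3.48 ± 0.17 log2 units (adjusted p = 1.67e-09), and the blocked change of 3.60 ± 0.67 had an adjusted p of 0.0513 without DBL replicate 3 and 0.0602 without DBL replicate 4. Hp, the hemoglobin-binding haptoglobin, was at 1315 CPM in the first-series library against 71.1 and 79.3 CPM in the second-series libraries (4.13 ± 0.09, adjusted p = 6.81e-15), and in TDonly at 134, 163 and 148 CPM, where the first-series library was the lowest and the change did not pass. In DBL, Lcn2, an iron-sequestering acute-phase protein, was at 451 CPM in the first-series library against 46.5 and 51.7 CPM in the second-series libraries (3.20 ± 0.13, interaction adjusted p = 1.11e-05). Cxcl13, a B cell-attracting chemokine, was at 79.7 CPM in the first-series library against 5.99 and 6.22 CPM in the second-series libraries and at most 3.39 CPM in the other 6 libraries (3.70 ± 0.16, interaction adjusted p = 2.48e-08). Gbp11, another interferon-induced gene, rose by 3.56 ± 0.26.

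Inflammatory genes as a class did not move one way in DBL. Of 31 NF-kappaB and acute inflammation targets, 10 rose and 9 fell, with a median of 0.01, and of 33 chemokine and interleukin genes 11 rose and 3 fell. Among all genes 6.57% rose and 7.11% fell in DBL. Besides Saa3 and Lcn2, Ptx3, a soluble pattern recognition protein, rose in DBL at 75.9 CPM in the first-series library against 30.99 and 30.8 CPM in the second-series libraries (1.296 ± 0.12, adjusted p = 1.2e-06). Has1, a hyaluronan synthase, was among those that fell, at 206 CPM in the first-series library against 426 and 473 CPM in the second-series libraries (-1.12 ± 0.10). Il1b, an interleukin of myeloid cells, fell by 2.505 ± 0.25 on the log2 scale, beside the fall of myeloid markers given above. Genes of activated endothelium rose for 15 of 20 and fell for 2 in DBL, and rose for 12 with none lower in TDonly. They rose for 2 and fell for 8 in ColGFP. Among all genes 7.45% rose and 10.9% fell in TDonly, and 8.07% rose and 8.47% fell in ColGFP. In DBL, Edn1, the vasoconstrictor endothelin, was at 106 CPM in the first-series library against 29.3 and 26.8 CPM in the second-series libraries. In TDonly, Edn1 was at 264 CPM in the first-series library against 89.5 and 98.1 CPM in the second-series libraries. Selp and Sele, adhesion molecules for leukocytes, rose by 2.14 ± 0.16 and 2.05 ± 0.19 in DBL and by 1.47 ± 0.15 and 1.59 ± 0.17 in TDonly, while in ColGFP the Selp difference was 0.49 ± 0.31 and did not pass. Ch25h, a cholesterol hydroxylase induced by interferon, rose by 1.62 ± 0.15 in DBL.

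Within TDonly, 2851 genes differed, or 18.3%, with 1159 higher and 1692 lower, and with library totals in place of TMM 668 were higher and 2284 lower, since that scaling moved the median of all genes by -0.12. The genes furthest up were again interferon-induced. Gbp10 was at 51.8 CPM in the first-series library against 1.72 and 1.71 CPM in the second-series libraries (4.91 ± 0.23, adjusted p = 1.22e-10), and Ido1 at 39.6 CPM in the first-series library against 1.56 and 1.71 CPM in the second-series libraries (4.59 ± 0.27). Apol10b, an apolipoprotein L gene, rose by 2.998 ± 0.30, Serpina3f, a serine protease inhibitor, by 2.92 ± 0.14 and Zbp1 by 2.79 ± 0.15. In TDonly, Angpt2, an endothelial ligand of the TIE receptor that loosens vessels, was at 102 CPM in the first-series library against 20.7 and 22.6 CPM in the second-series libraries (2.23 ± 0.11), whereas in ColGFP the change was -0.39 ± 0.12 (interaction adjusted p = 4.64e-08).

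Fibroblast and mesothelial genes fell in the TDonly library of the first series. Of 18 alveolar fibroblast markers 17 fell, of 21 adventitial fibroblast markers 15 fell and 4 rose, of 10 mesothelial markers 9 fell, and of 15 pericyte markers 10 fell and 1 rose, where 10.9% of genes were lower. Of 33 collagen and matrix genes 25 fell and 4 rose. Inmt, a methyltransferase of alveolar fibroblasts, was at 63.7 CPM in the first-series library against 347 and 363 CPM in the second-series libraries (-2.48 ± 0.10, adjusted p = 3.32e-11). Pdgfra, a growth factor receptor of fibroblasts, was at 60.1 CPM in the first-series library against 223 and 219 CPM in the second-series libraries, and Itga8, an integrin of mesenchyme, at 43.2 CPM in the first-series library against 156 and 141 CPM in the second-series libraries. Gsn, an actin-severing protein, was at 508 CPM in the first-series library against 2216 and 2412 CPM in the second-series libraries. First-series levels were below both others in each case, by 2.19 ± 0.09 for Gsn, 1.88 ± 0.09 for Pdgfra and 1.78 ± 0.10 for Itga8 on the log2 scale. Msln and Upk3b, surface proteins of the mesothelium, changed by -1.86 ± 0.14 and -2.02 ± 0.18, the pericyte genes Abcc9 and Pdgfrb by -1.69 ± 0.12 and -1.03 ± 0.10, the adrenergic receptor gene Adra1a by -2.85 ± 0.16 and the cartilage matrix gene Cilp by -2.74 ± 0.15. Col15a1, a basement membrane collagen, went against them, at 189 CPM in the first-series library against 58.8 and 60.9 CPM in the second-series libraries (1.66 ± 0.08), while in ColGFP it fell at 112 CPM in the first-series library against 359 and 355 CPM in the second-series libraries (-1.67 ± 0.09, interaction adjusted p = 7.74e-11).

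Of 26 WNT ligands, receptors and inhibitors 16 fell and 1 rose in TDonly, with a median of -0.78. Among all genes 10.9% fell and 7.45% rose in TDonly, and 8.47% fell and 8.07% rose in ColGFP. Wnt5a, a ligand of the non-canonical branch, was at 5.96 CPM in the first-series library against 17.5 and 21.4 CPM in the second-series libraries (-1.70 ± 0.15, adjusted p = 2.83e-07), and Wnt2, a canonical ligand of lung mesenchyme, at 2.22 CPM in the first-series library against 9.05 and 9.98 CPM in the second-series libraries (-2.09 ± 0.20). The secreted modulators Dkk3 and Sfrp2 changed by -1.66 ± 0.11 and -1.77 ± 0.20. All 4 lay below both other TDonly libraries. In ColGFP, Wnt2 instead rose by 0.56 ± 0.12 (adjusted p = 0.00435), and 3 WNT genes rose and 7 fell. The summed mesothelial level in TDonly was 211.1 CPM against 450.6 and 495.2, and the summed alveolar fibroblast level 2575 against 4384 and 4395. Their part in the WNT result was not tested.

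Within ColGFP, 2572 genes differed, or 16.5%, with 1255 higher and 1317 lower. Without ColGFP replicate 3 the count was 1634. With library totals in place of TMM 2038 were higher and 844 lower, because that scaling moved the median of all genes by 0.12. Airway secretory genes led the rise. Of 22 epithelial markers 21 rose and none fell, with a median of 1.25, where 8.07% of all genes rose and 8.47% fell. The summed level of the 22 was 15670 CPM against 5196 and 7672. Scgb1a1, the club cell secretoglobin, was at 374 CPM in the first-series library against 75.5 and 52.8 CPM in the second-series libraries (2.55 ± 0.13, adjusted p = 2.7e-09). In DBL, Scgb1a1 went the other way at 103 CPM in the first-series library against 437 and 437 CPM in the second-series libraries, and in TDonly at 340.1 CPM in the first-series library against 1709.7 and 1465 CPM in the second-series libraries (interaction adjusted p = 6.65e-11). Cyp2f2, a club cell cytochrome, rose by 2.05 ± 0.13 in ColGFP and changed by -1.89 ± 0.14 in DBL and -2.20 ± 0.13 in TDonly (interaction adjusted p = 7.84e-11). Reg3g, an antimicrobial lectin, rose by 3.76 ± 0.24 in ColGFP, the mucin gene Muc5b by 2.61 ± 0.16, the secretoglobins Scgb3a1 and Scgb3a2 by 2.75 ± 0.21 and 2.59 ± 0.21, and the immunoglobulin transporter Pigr by 3.14 ± 0.35.

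Smooth muscle genes rose and adventitial genes fell in the same ColGFP library. Of 17 smooth muscle and myofibroblast markers 12 rose and none fell, where 8.07% of all genes rose and 8.47% fell. Acta2, smooth muscle actin, was at 924 CPM in the first-series library against 301 and 334 CPM in the second-series libraries (1.54 ± 0.09, interaction adjusted p = 2.11e-07), Myh11, the smooth muscle myosin, at 471 CPM in the first-series library against 199 and 217 CPM in the second-series libraries, and Cnn1, calponin, at 41.1 CPM in the first-series library against 13.7 and 14.5 CPM in the second-series libraries. The first-series library was higher than both others for each. Of 21 adventitial markers 18 fell and none rose, beside the same shares of all genes. Pi16, a marker of adventitial fibroblasts, was at 83.2 CPM in the first-series library against 417 and 363 CPM in the second-series libraries (-2.23 ± 0.12, adjusted p = 2.7e-09), and Serpinf1, an inhibitor of vessel growth, at 37.3 CPM in the first-series library against 228 and 234 CPM in the second-series libraries. Dio2, an enzyme that activates thyroid hormone, fell furthest, at 2.41 CPM in the first-series library against 44.02 and 44.2 CPM in the second-series libraries (-4.19 ± 0.18). The first-series library was below both others for these 3 genes, and in DBL Dio2 was at 92.6, 83.6 and 81.02 CPM and did not pass (interaction adjusted p = 2.24e-09). The WNT inhibitor Sfrp4 changed by -4.02 ± 0.26, the transcription factor gene Ebf2 by -3.20 ± 0.20 and the eosinophil chemokine gene Ccl11 by -2.52 ± 0.24. Scara5, a ferritin receptor of adventitial cells, fell in all 3 populations, by 1.74 ± 0.27 log2 units over populations (adjusted p = 0.00725).

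Of 31 NF-kappaB and acute inflammation targets, 20 fell and 2 rose in ColGFP, with a median of -0.69, where 8.47% of all genes fell and 8.07% rose. The difference between populations passed for 28 of the 31, against 18.0% of all genes. Ptgs2, the inducible prostaglandin synthase, was at 108 CPM in the first-series library against 405 and 363 CPM in the second-series libraries (-1.83 ± 0.10, adjusted p = 3.69e-09). Il6, an interleukin secreted by fibroblasts, was at 93.7 CPM in the first-series library against 264 and 255 CPM in the second-series libraries, and Has1 at 74.2 CPM in the first-series library against 250.5 and 253 CPM in the second-series libraries. Ptx3 was at 1.48 CPM in the first-series library against 17.7 and 17.5 CPM in the second-series libraries (-3.57 ± 0.21), the opposite of its rise in DBL (interaction adjusted p = 4.32e-09). The first-series library was below both others for all 4, which describes the order of 1 library against 2 and is often met by order alone. Has1 was lower in every population, by 1.12 ± 0.10 in DBL, 2.03 ± 0.12 in TDonly and 1.76 ± 0.10 in ColGFP on the log2 scale (interaction adjusted p = 0.000472). These changes stand beside the fall of adventitial markers in the same library, and the part of one in the other was not tested.

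**Figure D5:**
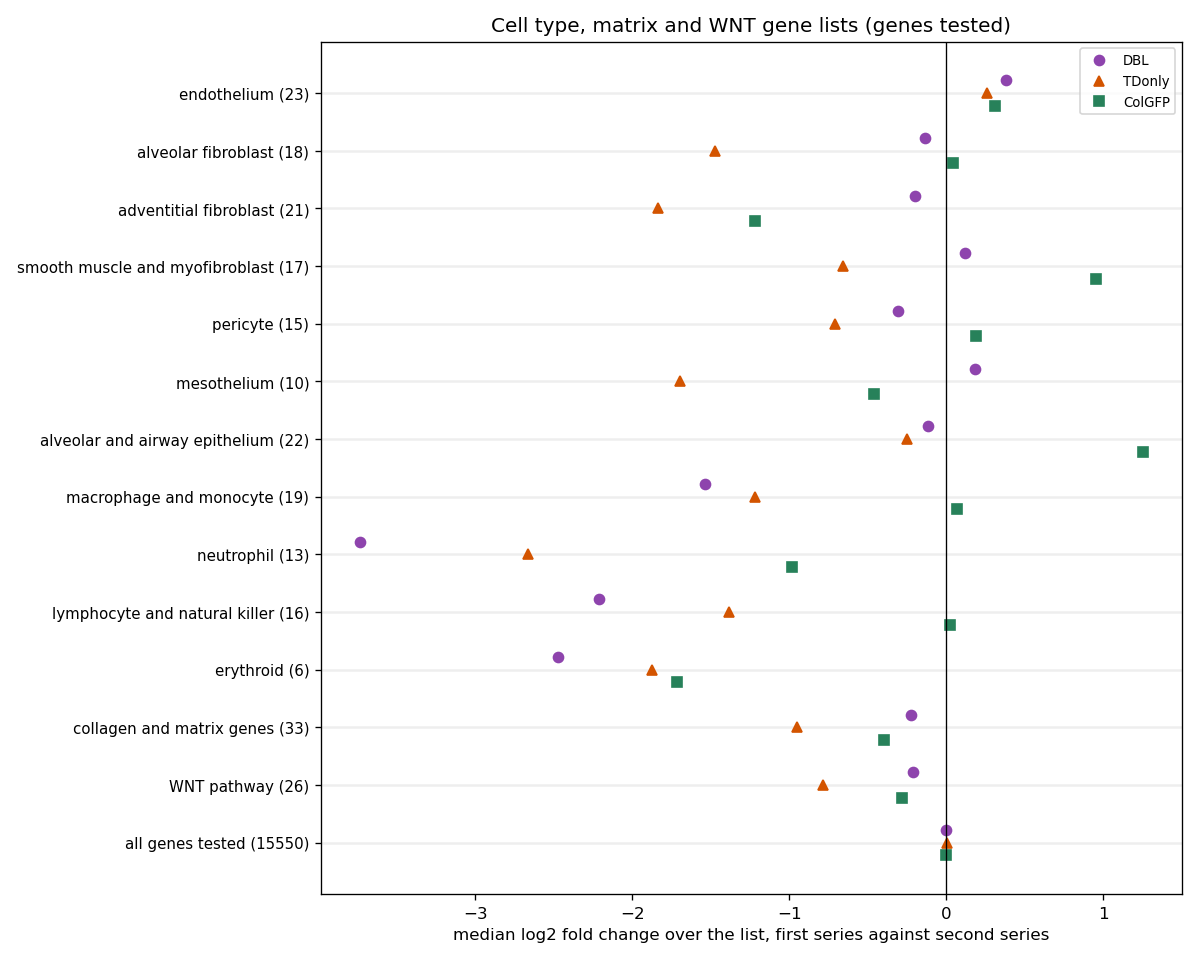
Median log2 fold change of the first against the second series over each list of cell type markers, matrix genes and WNT genes, with the number of genes tested in brackets, for DBL (circles), TDonly (triangles) and ColGFP (squares). Neutrophil and erythroid medians are below 0 in all 3 populations, fibroblast and mesothelial medians are lowest in TDonly among the 3, and the epithelial and smooth muscle medians are highest in ColGFP.

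Of 33 collagen and matrix genes 10 fell and 2 rose over populations. By population 14 fell and 5 rose in DBL, 21 fell and 1 rose in ColGFP, and 25 fell and 4 rose in TDonly. Among all genes 4.13% fell and 3.52% rose over populations, and 7.11% fell and 6.57% rose in DBL. The shares that fell and rose were 8.47% and 8.07% in ColGFP and 10.9% and 7.45% in TDonly. Dcn, the collagen-binding proteoglycan decorin, was at 2757 CPM in the first-series library against 3973 and 4209.8 CPM in the second-series libraries in DBL. In ColGFP, Dcn was at 669 CPM in the first-series library against 2074 and 2046 CPM in the second-series libraries. In TDonly, Dcn was at 68.99 CPM in the first-series library against 314 and 373 CPM in the second-series libraries. Dcn was below its pair in every population, as were 11.4% of all genes. Its change was -0.57 ± 0.09 in DBL, -1.62 ± 0.10 in ColGFP and -2.31 ± 0.11 in TDonly (interaction adjusted p = 2.65e-07). Col14a1, a fibril-associated collagen, changed by -1.22 ± 0.24 over populations (adjusted p = 0.0185), and Mmp2, a matrix protease, by -0.89 ± 0.17 (adjusted p = 0.0194, and 0.0588 without DBL replicate 4). The count of 10 became 3 without DBL replicate 3, 3 without DBL replicate 4, 17 without ColGFP replicate 1, 3 without ColGFP replicate 2, 3 without ColGFP replicate 3, 3 without TDonly replicate 2 and 4 without TDonly replicate 3, and 4 with library totals.

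The difference between series depended on the population for 2802 genes, or 18.0% of those tested. Pairwise, the changes differed for 2605 genes between ColGFP and TDonly (16.8%), for 2031 between DBL and ColGFP (13.1%) and for 754 between DBL and TDonly (4.85%). The 10 genes with the smallest interaction p at 10 CPM or more were Hp, Scgb1a1, Saa3, Col15a1, Cyp2f2, Gbp5, Gbp2, Dio2, Inmt and Ptx3. These comprise acute-phase (Hp, Saa3, Ptx3), club cell (Scgb1a1, Cyp2f2), interferon-induced (Gbp2, Gbp5) and mesenchymal (Col15a1, Dio2, Inmt) genes. By list, all 22 epithelial and all 21 adventitial markers tested passed, with 17 of 18 alveolar fibroblast, 31 of 33 matrix and 10 of 10 mesothelial genes, whereas 3 of 34 cell cycle genes did (edgeR's quasi-likelihood F test).

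Most differences between populations kept their direction across the series. Of the genes that differed between 2 populations in the second series alone, the first-series libraries had the same sign for 94.5% of 6690 genes between DBL and TDonly, 86.9% of 8794 between ColGFP and TDonly and 82.2% of 4506 between DBL and ColGFP. Across all genes the Pearson correlation of the differences in the 2 series was 0.823, 0.787 and 0.4955, in that order. For the genes called in the second series the median absolute difference was 0.835, 1.05 and 0.741 there. It was 0.757, 0.780 and 0.680 in the first series. These first-series values are single libraries, with no test.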

How the data were processed

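RNA-seq of 9 libraries of 3 sorted lung populations, depleted of ribosomal RNA, was used. The authors deposited raw read counts per gene symbol. Cutadapt, TopHat, HTSeq and the mouse build mm10 are named in the submitters' processing notes, without versions, and the strand setting is not given in the sources used here. Another 3 columns of the table were not used. Counts were tested as deposited, after edgeR's filterByExpr left 15550 of 19348 genes, with TMM factors and edgeR 4.0.16 quasi-likelihood F tests (R 4.3.3), each two-sided, p adjusted by the Benjamini-Hochberg method across every gene tested, threshold 0.05. One model had population and series as additive terms (5 residual degrees of freedom), and another a mean per population and series (3), from which the difference within each population and the interaction were taken. Values after ± are standard errors, the log2 fold change divided by the square root of F.

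Genes named over populations were the 10 largest changes per direction that passed, reached 10 CPM and had the first-series library outside both others in every population. Within a population 8 per direction were eligible, by interaction the 10 with the smallest p, and of each list up to 4 by adjusted p, leaving out unnamed gene models. Col1a1 and Foxf1a were added as checks of the labels, and Isg20, Irf9, Lyz1, Lyz2 and Csf1r after their values were seen. The comparison, the 46 gene lists and the rules were chosen with earlier results of these data known.

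The tests were tested on simulated data with known changes before use. There the lone library was drawn with the spread of the second-series pairs, so the simulation cannot check that assumption. Only 100 of its 15410 genes changed in a single population. Alternatives were DESeq2 1.42.0 and its size factors, library totals, limma-voom (limma 3.58.1), other filters, added terms and leaving out each library. No label pairs the libraries by replicate number and the data could not decide it, so the main fits had no replicate block.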

Additional observations from a re-analysis of the deposited data

Results flagged for a closer look

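The change between series differed between populations for 2802 genes by the interaction test, and pairwise for 2031 genes between DBL and ColGFP, 754 between DBL and TDonly and 2605 between ColGFP and TDonly. Each of the following genes passed the same edgeR interaction test, which is why it is given again.

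Among acute-phase and inflammatory genes the interaction adjusted p was 1.16e-11 for Hp, 6.65e-11 for Saa3, 4.32e-09 for Ptx3, 1.11e-05 for Lcn2 and 0.000472 for Has1. Among interferon-induced genes and chemokines it was 4.69e-10 for Gbp5, 4.69e-10 for Gbp2, 2.39e-08 for Cxcl10, 2.48e-08 for Cxcl13 and 1.15e-06 for Cxcl9. Club cell genes had 6.65e-11 (Scgb1a1) and 7.84e-11 (Cyp2f2). Mesenchymal and vascular genes had 7.74e-11 (Col15a1), 2.24e-09 (Dio2), 2.99e-09 (Inmt), 4.64e-08 (Angpt2), 2.11e-07 (Acta2) and 2.65e-07 (Dcn). Glucocorticoid-responsive genes had 3.37e-07 (Angptl4), 8.34e-07 (Tsc22d3) and 0.00048 (Zbtb16), the clock genes 0.0126 (Per2) and 0.0335 (Per1), and the immediate early genes 0.00138 (Egr2) and 0.00919 (Nr4a3).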

How the results depend on the processing

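The count over populations (1190) was 106 with the replicate block (60 higher, 46 lower), 688 with the core-number triplet as a term, 1900 with DESeq2, 4053 for the mean of the 3 population differences and 15 against a 2-fold change, and ranged from 447 to 2563 with 1 library left out. With the replicate block the DBL count was 3260 and the interaction count 4596, beside 3697 in ColGFP and 3589 in TDonly. With 1 library left out the counts were 1597 to 2153 in DBL, 1634 to 2814 in ColGFP, 1920 to 3015 in TDonly and 2141 to 3190 for the interaction. Over populations the number of genes called higher with the replicate block was 3 for interferon-stimulated (29 without it), 8 for antigen presentation (18), 2 for clock (7), 4 for glucocorticoid-responsive (5), 0 for cell cycle (9) and 1 for endothelial genes (9), and the number called lower 1 for neutrophil (9), 3 for erythroid (5), 4 for immediate early (11), 0 for heat shock (5) and 0 for matrix genes (10). With the core-number triplet these counts were 15, 17, 7, 4, 5 and 6 higher, and 6, 3, 5, 3 and 3 lower. Among all genes, 329 were called higher and 359 lower with the core-number triplet, against 548 and 642 in the main fit. The list counts are to be read beside these totals. The shares of population differences with the same sign were 79.83 to 86.71% (DBL and ColGFP), 93.66 to 97.34% (DBL and TDonly) and 86.76 to 89.06% (ColGFP and TDonly). Deviations of same-numbered libraries correlated at 0.016 to 0.53, where the 0.53 was between the first-series libraries of DBL and TDonly. These deviations were taken from means over both series and carry the series difference, so they cannot decide whether replicate numbers pair the libraries. Differences between the core-number triplets of the second series correlated at 0.026 to 0.072 across populations. Of 3074 alternative values for 174 results on named genes, 2960 kept direction and call, 114 kept direction and lost the call, and none reversed. All lost calls were among the results over populations. The replicate block lost 29 of them, and the test against a 2-fold change lost 43 and kept 11. These genes were picked from the same data, so the tally is no measure of how stable an unpicked gene would be. The cause of these shifts was not tested. The effect of depth was not tested, and 1 first-series library per population limits every difference within one.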

Other observations

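Other lists gave the following counts over populations, where 3.52% of all genes were higher and 4.13% lower. Of 20 unfolded protein and integrated stress genes 4 were lower, of 18 YAP and mechanical response genes 4 were higher and 2 lower, of 17 abundant non-coding RNA genes 2 were higher and 3 lower, and of 23 hypoxia-induced genes 3 were higher and 2 lower. In ColGFP, where 8.07% of all genes were higher and 8.47% lower, unfolded protein and integrated stress genes were lower for 11 of 20 and higher for 1, metallothionein and antioxidant genes were higher for 4 of 16 and lower for 2, lipid and adipocyte genes were higher for 9 of 26 and lower for 1, and non-coding RNA genes were lower for 8 of 17 and higher for 1. In TDonly, where 7.45% were higher and 10.9% lower, unfolded protein genes were higher for 2 and lower for 2, metallothionein and antioxidant genes were lower for 10, lipid and adipocyte genes were lower for 7 and higher for 1, and non-coding RNA genes were higher for 7 and lower for 3.

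Transcripts of both sexes were present in every library: Xist, the non-coding RNA of the inactive X chromosome, ranged from 451 to 1067 CPM and Ddx3y, a helicase gene on the Y chromosome, from 22.3 to 53.1 CPM. Both were chosen after their values were seen, and the labels used here name no sex and no number of animals per library.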
